A study of Homo sapiens with 6 samples.

Results

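The 10 genes described here encode the core of the human microRNA (miRNA) pathway. They are *DROSHA*, *DGCR8*, *XPO5*, *DICER1*, *TARBP2*, *AGO1*, *AGO2*, *AGO3*, *TNRC6A* and *TNRC6B*. They were chosen by name for their known roles, with earlier results of these data known, among 39739 gene rows. Each name matched 1 row. RNA-seq was available for 6 libraries, 3 from HGC27-FN1 3′-UTR cells and 3 from their controls, named HGC27-control cells. HGC27 is an established line from a human gastric cancer. HGC27-FN1 3′-UTR cells carried the *FN1* 3′-UTR, stably overexpressed from a lentivirus, and were selected with puromycin as a population, whereas the labels call the other group only a control of the same line. The labels do not say whether the replicates were separate cultures, so p-values measure the spread between these libraries, which may be technical. The study asked whether the *FN1* 3′-UTR competes for miRNAs and so affects the expression of their target genes. The question put to these 10 genes was whether their own mRNA levels differed between the groups.

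A miRNA is cut from a hairpin in the nucleus by DROSHA with its RNA-binding partner DGCR8, and the resulting precursor is exported by XPO5. In the cytoplasm, DICER1 with TARBP2 cuts the precursor to a short duplex, and 1 strand is loaded into an Argonaute protein. The Argonaute finds mRNAs through the seed of the miRNA and recruits a TNRC6 protein, which in turn brings the deadenylases that shorten the poly(A) tail. AGO2 can also cut a fully matched target.

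The study paired 4 miRNAs with the *FN1* 3′-UTR in reporter assays, and their mature strands are printed here to show the cargo that this machinery makes and loads. The sequences are from RefSeq on GRCh38.p14, with the seed, bases 2 to 8 from the 5′ end, in capitals.

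let-7i-5p: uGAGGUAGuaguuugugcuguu

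miR-629-5p: uGGGUUUAcguugggagaacu

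miR-423-5p: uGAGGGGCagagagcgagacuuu

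miR-296-3p: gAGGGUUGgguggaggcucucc

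The 4 seeds differ from each other, so none of these miRNAs shares a seed family with another. Among the 10 genes, *DICER1*, *TARBP2* and *AGO3* were listed as targets of let-7i-5p by both prediction databases that the study used. Of the relatives described further on, *AGO4* and *LIN28B* were also on that list. For miR-629-5p, *TNRC6B*, which is among the 10 genes, and *LIN28B* were listed by both databases. The miR-629-5p list was available only in shortened form, so absence from it cannot be judged. For miR-423-5p and miR-296-3p, none of the 10 genes was listed by both.

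Expression was deposited as reads per kilobase per 1000000 reads (RPKM). Reads are divided by the length of merged exons, the union of a gene's exons, so comparisons between genes depend on that length. The libraries held 16357085 to 37037532 reads assigned to genes, and 326 to 4254 reads lay behind each value of the 10 genes. Expression of *FN1* over all its exons was 0.78 ± 0.037 RPKM in HGC27-FN1 3′-UTR cells, against 0.516 ± 0.037 RPKM in HGC27-control cells (SD, n = 3 each), and the log2 fold change was 0.52 with an adjusted p of 0.0292 (limma). With any 1 of the 6 libraries left out, this adjusted p lay between 0.0614 and 0.0982 from limma. Of 5 epithelial markers (*CDH1*, *EPCAM*, *KRT8*, *KRT18* and *KRT19*), the summed level was 18.2 to 27.0 RPKM in HGC27-FN1 3′-UTR libraries and 2.59 to 2.99 RPKM in HGC27-control libraries, and the part of this difference in the results on the miRNA pathway was not tested. The sum of 4 mesenchymal markers, including *VIM*, was 346 to 372 and 324 to 364 RPKM. The gastric mucosa markers *MUC5AC* and *TFF1*, the blood cell marker *PTPRC* and the endothelial markers *PECAM1* and *CDH5* stayed under 0.1 RPKM in every library. The other gastric and blood cell markers with a row were *MUC6*, at 0.0798 to 0.154 RPKM, and *CD68*, a lysosomal marker of macrophages, at 1.81 to 2.37 RPKM. In RNA from whole cultures, fewer cells with a transcript and less of it per cell cannot be told apart. Mitochondrial transcripts took 5.37 to 6.95% of the reads.

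No difference between the groups passed the test for any of the 10 genes. All 10 passed the minimum of 0.1 RPKM in 3 libraries, and limma on log2(RPKM + 0.1) called 0 of them at an adjusted p under 0.05, against 13.0% of the 23299 genes tested, a share at which a count of 0 among 10 genes is near the background. Among the 14652 tested genes with a mean of at least 1 RPKM, which is closer to the level of these genes, 17.3% passed. The smallest unadjusted p was 0.0889 from limma, so 0 of the 10 were under 0.05 before adjustment either. With voom, fitted by limma to reads recovered from RPKM, 0 passed after adjustment. *TNRC6A* alone was under 0.05 before adjustment with voom in limma (unadjusted 0.0463, adjusted p = 0.145). By the study's criteria, a log2 fold change beyond 1 in either direction with an unadjusted p under 0.05, 0 of the 10 passed, against 2.47% of all tested genes.

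The estimates were small in both directions. The log2 fold change was positive for 5 genes and negative for 5, and ran from -0.10 to 0.07 with a median of 0.02, against -0.04 for all tested genes. The median absolute log2 fold change of the 10 was 0.05, and that of the tested genes with a mean of at least 1 RPKM was 0.12. For 9 of the 10 genes the 95% interval of the log2 fold change lay within 0.25 of 0. The exception, *AGO2*, had an upper bound of 0.32. In terms of fold, the intervals of all 10 together ran from 0.853 to 1.25. Groups that did not overlap were seen for 1 of the 10, *DGCR8*, against 36.0% of all tested genes. For 3 libraries in each group, 0.1 is the smallest two-sided p that exact permutation allows.

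**Figure D1:**
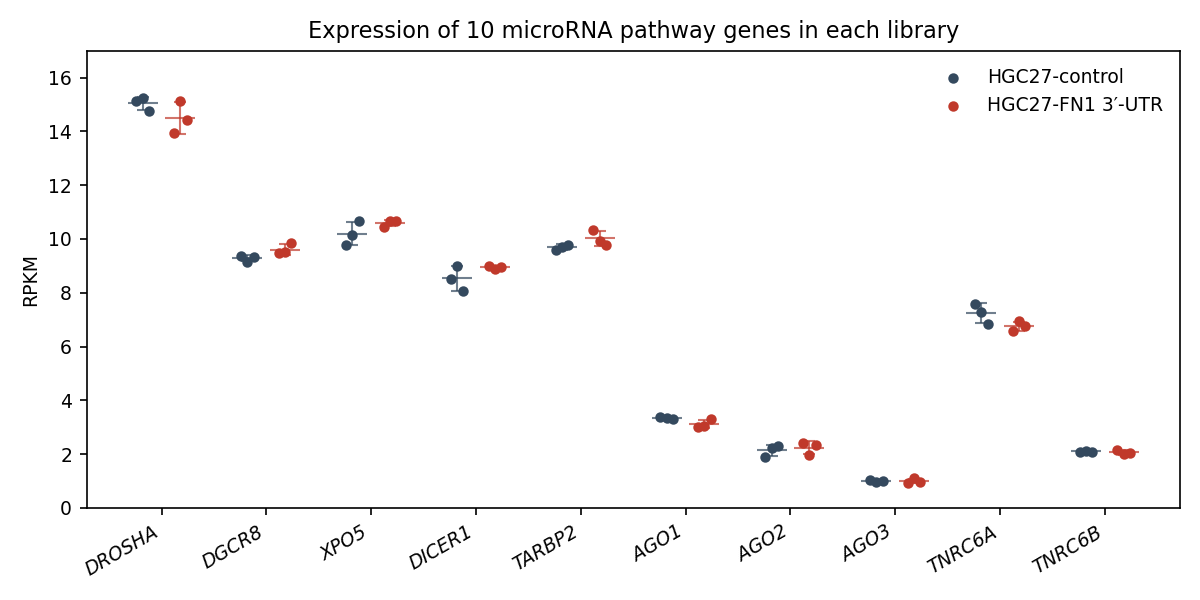
RPKM (y axis, linear) of each of the 10 genes (x axis) in the 3 HGC27-control libraries (dark points) and the 3 HGC27-FN1 3′-UTR libraries (red points), with the mean as a horizontal line and the SD as a bar. *DROSHA* was the highest at 13.9 to 15.2 RPKM and *AGO3* the lowest at 0.942 to 1.10 RPKM, and the 2 groups overlapped for every gene but *DGCR8*.

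By RPKM, the genes that make miRNAs were expressed at higher levels than those that carry out silencing. The merged exons of the genes that make miRNAs had 4090 to 12294 bases, and those of the silencing genes 12924 to 21157. This order thus depends on length. By reads the sets overlapped: in HGC27-control libraries *TNRC6A* had 8377 reads, against 7894 for *XPO5* and 3583 for *TARBP2*. Per length, *DROSHA*, *XPO5*, *TARBP2*, *DGCR8* and *DICER1* took the highest 5 places in both groups, followed by *TNRC6A*, and then *AGO1*, *AGO2*, *TNRC6B* and *AGO3*. The mean in HGC27-control cells ranged from 15.04 ± 0.247 RPKM for *DROSHA* to 1.004 ± 0.0348 RPKM for *AGO3* (SD, n = 3 each). The order by mean was the same in HGC27-FN1 3′-UTR cells. Neighbours in this order had ranges that did not meet, except *AGO2* and *TNRC6B* in both groups and *TARBP2* and *DGCR8* in HGC27-FN1 3′-UTR cells.

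*DROSHA*, the nuclear RNase III, spans chromosome 5 from 31400497 to 31532196 on the reverse strand (GRCh38, as are all positions below). Its expression was 13.9, 15.1 and 14.4 RPKM in HGC27-FN1 3′-UTR replicates 1 to 3, and 15.1, 15.2 and 14.8 RPKM in the HGC27-control replicates. The lowest pair of values came from HGC27-FN1 3′-UTR libraries, but replicate 2 of that group lay among the controls. Its log2 fold change of -0.05 did not pass (standard error 0.040, 95% interval -0.15 to 0.04, adjusted p = 0.423 from limma).

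*DGCR8* encodes the double-stranded RNA-binding partner of DROSHA and lies on chromosome 22 from 20080232 to 20111877. It was measured at 9.46, 9.53 and 9.84 RPKM in HGC27-FN1 3′-UTR cells and at 9.37, 9.16 and 9.32 RPKM in HGC27-control cells. Every HGC27-FN1 3′-UTR library thus lay above every control, by a narrow margin between replicate 1 of each group. The means differed by 1.035-fold, with a log2 fold change of 0.05 (standard error 0.034, 95% interval -0.03 to 0.13, adjusted p = 0.390 from limma). Exons of genes on the opposite strand, among them *TRMT2A*, overlapped 7.22% of its merged exons, and whether the strand was used in counting was not given in the sources used here. DROSHA and DGCR8 act as one complex, and the *DROSHA* to *DGCR8* ratio within a library does not depend on how libraries are scaled. This ratio was 1.51 in HGC27-FN1 3′-UTR cells and 1.62 in HGC27-control cells (geometric means), a difference of -0.10 on the log2 scale (two-sided exact permutation p = 0.2, 0.6 adjusted over 6 ratios and shares).

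*XPO5*, which carries precursor miRNAs out of the nucleus, spans chromosome 6 from 43522330 to 43576075 on the reverse strand. Its level was 10.45, 10.65 and 10.65 RPKM in HGC27-FN1 3′-UTR cells against 9.794, 10.14 and 10.67 RPKM in HGC27-control cells. The highest value of all 6 was that of HGC27-control replicate 3, and the groups overlapped. In limma, *XPO5* showed a difference of 0.05 in log2 expression (standard error 0.041, 95% interval -0.05 to 0.15, adjusted p = 0.444 from limma).

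*DICER1*, the cytoplasmic RNase III, spans chromosome 14 from 95086228 to 95158010 on the reverse strand. HGC27-FN1 3′-UTR libraries were tightly grouped at 9.01, 8.90 and 8.96 RPKM, and HGC27-control libraries ranged more widely at 8.52, 9.0 and 8.08 RPKM. The coefficients of variation were 0.605% and 5.396%, respectively, where reads alone would give 2.015% and 1.809%. The first was thus below the spread expected from counting reads. Control replicate 2 fell inside the range of the other group. Its log2 fold change was 0.07 (standard error 0.047, 95% interval -0.04 to 0.18, adjusted p = 0.373 from limma), and 0.03 without HGC27-control replicate 3.

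*TARBP2* encodes TRBP, a partner of DICER1 in dicing and loading, and lies on chromosome 12 from 53500921 to 53506431. Replicates 1 to 3 gave 10.34, 9.921 and 9.788 RPKM in HGC27-FN1 3′-UTR cells and 9.579, 9.719 and 9.79 RPKM in HGC27-control cells. The groups met at the third replicate of each. Between the groups, *TARBP2* differed by 0.05 on the log2 scale (standard error 0.036, 95% interval -0.04 to 0.13, adjusted p = 0.447 from limma). The *DICER1* to *TARBP2* ratio was 0.894 and 0.879 in HGC27-FN1 3′-UTR cells and their controls, respectively, a log2 difference of 0.02 (two-sided exact permutation p = 0.8, 0.8 adjusted over the 6).

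*PRKRA*, the gene of PACT, another double-stranded RNA-binding partner of DICER1, had 9.09 ± 0.779 and 9.53 ± 0.264 RPKM (SD, n = 3 each), with a log2 fold change of -0.07 and an adjusted p of 0.541 (limma). *DICER1*, *TARBP2* and *PRKRA* thus lay between 8.08 and 10.3 RPKM in every library.

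The Argonautes bind the mature miRNA. *AGO4*, *AGO1* and *AGO3* lie next to each other in this order on chromosome 1, all on the forward strand, within 264 kb. *AGO1* spans 35869808 to 35930528 and ends 189 bases before the start of *AGO3*, which runs to 36072500. *AGO2* lies apart, on chromosome 8 from 140520156 to 140635619, reverse strand.

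*AGO1* was expressed at 3.00, 3.05 and 3.31 RPKM in HGC27-FN1 3′-UTR cells and at 3.36, 3.36 and 3.29 RPKM in HGC27-control cells. HGC27-FN1 3′-UTR replicate 3 lay within the range of the controls and the other 2 lay below it. The difference in *AGO1* was -0.10 on the log2 scale (standard error 0.055, 95% interval -0.23 to 0.04, adjusted p = 0.312 from limma).

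*AGO2* encodes the Argonaute that cuts fully matched targets, and the study immunoprecipitated this protein to collect bound RNA. Its mRNA had 2.42, 1.97 and 2.34 RPKM in HGC27-FN1 3′-UTR cells and 1.91, 2.21 and 2.28 RPKM in HGC27-control cells. Both groups held low and high libraries, and the ranges overlapped over most of their width. It varied most among replicates of the 10 genes, with a coefficient of variation of 10.8% and 9.39%, where reads alone would give 3.55% and 3.21%. With a standard error of 0.11, the widest of the 10, the log2 fold change was 0.07 (95% interval -0.19 to 0.32, adjusted p = 0.731 from limma). In terms of fold, the interval of *AGO2* ran from 0.877 to 1.25, and these libraries do not tell apart the values within it.

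*AGO3* was the least expressed, at 0.942, 1.10 and 0.973 RPKM in HGC27-FN1 3′-UTR cells and 1.03, 0.966 and 1.01 RPKM in HGC27-control cells. The group means were 1.005 and 1.004 RPKM. With a log2 fold change of -0.00049, *AGO3* was the closest of the 10 to no difference (standard error 0.094, 95% interval -0.23 to 0.23, adjusted p = 0.998 from limma).

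The fourth Argonaute, *AGO4*, is not one of the 10 genes and was included as their closest relative. Its expression was 2.10, 2.12 and 2.14 RPKM in HGC27-FN1 3′-UTR cells and 2.93, 3.10 and 2.89 RPKM in HGC27-control cells. All 3 HGC27-FN1 3′-UTR libraries lay well below all 3 controls. It fell by 0.47 on the log2 scale (standard error 0.055, 95% interval -0.60 to -0.34, adjusted p = 0.00549 from limma), and the adjusted p from limma, voom included, lay between 9.89e-06 and 0.0397 under the alternatives run. It was covered by 1947 reads in the 3 controls and by 1081 in the other 3 libraries.

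Whether *AGO4* differed from its relatives was examined with ratios within libraries, a comparison chosen after these values were seen. The *AGO4* to *AGO1* ratio was lower in HGC27-FN1 3′-UTR cells by 0.39 on the log2 scale, and the groups did not overlap (-0.63 to -0.51 against -0.20 to -0.12). The ratios to *AGO2* and *AGO3* differed by -0.56 and -0.48, also without overlap. All 3 ratios hold the same *AGO4* values, so they are not separate tests. Each of the 3 ratios had a two-sided exact permutation p of 0.1, the smallest possible.

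Of the summed RPKM of the 4 Argonaute genes, *AGO4* made up 31.5 ± 0.877% in HGC27-control cells and 25.01 ± 0.688% in HGC27-FN1 3′-UTR cells (SD, n = 3 each). The size of these shares depends on merged exon length, which was 7267 bases for *AGO4* and 13886 to 21157 for the others. The share of *AGO2* was 26.4 ± 2.37% in HGC27-FN1 3′-UTR cells and 22.6 ± 1.77% in HGC27-control cells (SD, n = 3 each), but its groups overlapped (two-sided exact permutation p = 0.2, 0.6 adjusted over the 6). *AGO1* held 36.7% and 35.3%, and *AGO3* held 11.9% and 10.6%. As shares sum to a fixed total, a lower share of 1 gene raises the others. Among the members alone, the *AGO1* to *AGO2* and *AGO3* to *AGO2* log2 ratios differed by -0.17 and -0.07 (two-sided exact permutation p = 0.4 and 0.6, both 0.72 adjusted over the 6). The summed RPKM was 8.49 ± 0.258 in HGC27-FN1 3′-UTR cells and 9.45 ± 0.200 in HGC27-control cells (SD, n = 3 each), without overlap. Most of the difference between these sums was that of *AGO4* itself, with means of 2.12 and 2.97 RPKM, respectively.

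**Figure D2:**
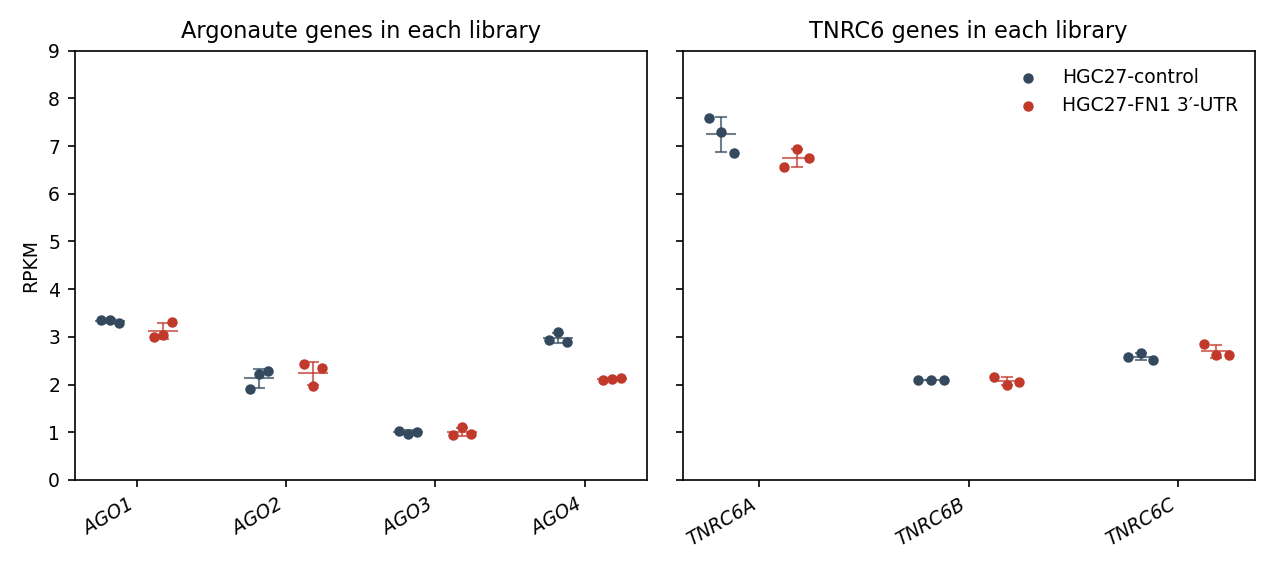
RPKM (y axis, linear) of the 4 Argonaute genes (left) and the 3 TNRC6 genes (right) in each HGC27-control library (dark) and HGC27-FN1 3′-UTR library (red), with mean and SD. Of the 7, *AGO4* alone had groups that did not overlap, at 2.10 to 2.14 against 2.89 to 3.10 RPKM.

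The TNRC6 (GW182) proteins link Argonautes to the deadenylases. *TNRC6A*, on chromosome 16 from 24610209 to 24827632, was expressed at 6.57, 6.93 and 6.75 RPKM in HGC27-FN1 3′-UTR cells and 7.59, 7.30 and 6.85 RPKM in HGC27-control cells. HGC27-FN1 3′-UTR replicate 2 lay above control replicate 3, and the other values separated. Its log2 fold change was -0.10 (standard error 0.050, 95% interval -0.22 to 0.02, adjusted p = 0.241 from limma), and -0.07 without HGC27-control replicate 1.

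*TNRC6B*, on chromosome 22 from 40044817 to 40335808, had 2.16, 1.99 and 2.05 RPKM in HGC27-FN1 3′-UTR cells and 2.09, 2.11 and 2.09 RPKM in HGC27-control cells. The control values lay inside the range of the other group. A log2 fold change of -0.02 was found (standard error 0.059, 95% interval -0.16 to 0.12, adjusted p = 0.872 from limma). *TNRC6A* exceeded *TNRC6B* by 3.26-fold in HGC27-FN1 3′-UTR cells and 3.45-fold in HGC27-control cells, a log2 difference of -0.08 (two-sided exact permutation p = 0.5, 0.72 adjusted over the 6). The third family gene, *TNRC6C*, had a log2 fold change of 0.06 and an adjusted p of 0.584 (limma). Its antisense gene overlaps 12.9% of its merged exons.

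**Figure D3:**
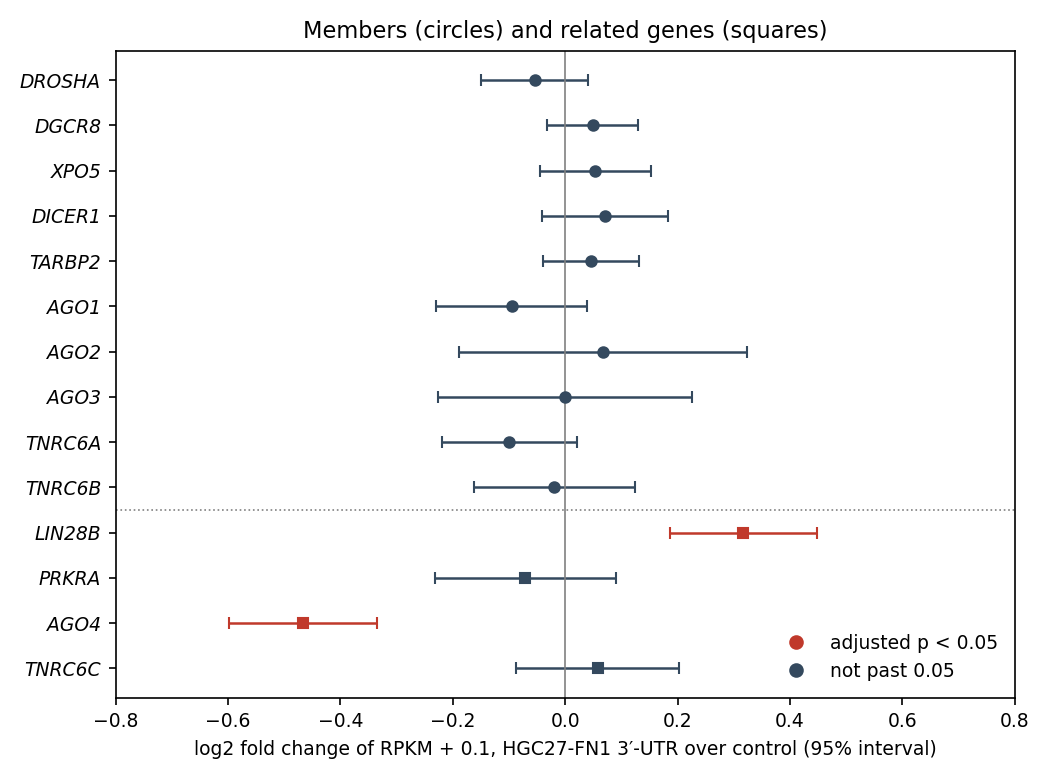
Log2 fold change of RPKM + 0.1 in HGC27-FN1 3′-UTR over HGC27-control cells (x axis) with its 95% interval for the 10 genes (circles) and 4 related genes (squares), in red where the adjusted p from limma was under 0.05. The intervals of all 10 include 0, while those of *LIN28B* (0.19 to 0.45) and *AGO4* (-0.60 to -0.34) do not.

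The other genes of the pathway were taken from 7 lists by role, 84 genes in all, of which 82 were tested. At an adjusted p under 0.05 from limma, 4 had higher and 10 had lower expression in HGC27-FN1 3′-UTR cells. Of all tested genes, 5.62% were higher and 7.36% lower, and the counts per list below stand beside these shares. Most of the 82 had a mean of at least 1 RPKM, a level at which 17.3% of tested genes passed in either direction. The share of the 82 that passed in either direction was near that value. With median-ratio scaling of the libraries the split was 6 higher and 6 lower. Their median log2 fold change was -0.01. All 82 estimates were within 1 of 0 on the log2 scale. Groups did not overlap for 47 of the 82 genes, against 36.0% of all tested genes. With any 1 library left out, 0 to 2 were higher and 3 to 5 were lower.

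In the nucleus, 1 of 13 cofactors of the DROSHA complex rose and none fell. It was *ILF2*, with a log2 fold change of 0.13 and an adjusted p of 0.0481 (limma). Of 6 export genes, 1 rose, namely *RAN*, the GTPase that XPO5 needs to hold its cargo. *RAN* was at 61.1 ± 1.63 RPKM in HGC27-FN1 3′-UTR cells, against 54.97 ± 0.740 RPKM in HGC27-control cells (SD, n = 3 each), with a log2 fold change of 0.15 and an adjusted p of 0.0242 (limma). Neither call held with any 1 library left out, where the adjusted p from limma lay between 0.0592 and 0.14 for *ILF2* and between 0.0533 and 0.0963 for *RAN*.

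Among 7 tested genes around dicing, 1 rose. *LIN28B*, which blocks the maturation of let-7 precursors, was measured at 3.14, 3.21 and 2.99 RPKM in HGC27-FN1 3′-UTR cells and 2.51, 2.52 and 2.40 RPKM in HGC27-control cells. The groups did not overlap, as for 36.0% of all tested genes. It rose by 0.32 on the log2 scale (standard error 0.054, adjusted p = 0.0169 from limma). With 1 library left out, its adjusted p from limma was 0.0403 to 0.0626 and passed in 2 of 6 fits, those without HGC27-control replicate 1 or HGC27-FN1 3′-UTR replicate 3. *LIN28A* did not reach the minimum RPKM.

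Against 7.36% lower and 5.62% higher of all tested genes, 3 of 10 Argonaute relatives and chaperones of Argonaute loading fell and 1 rose. Beside *AGO4*, these were *HSPA8*, the constitutive HSC70, at 318 ± 9.38 against 406 ± 4.99 RPKM in HGC27-control cells (SD, n = 3 each), with a log2 fold change of -0.35 and an adjusted p of 0.00265 (limma), and *HSP90AA1*, an HSP90 gene, at -0.27 (adjusted p = 0.0364 from limma). *HSPA4*, an exchange factor for HSP70 proteins, rose by 0.17 (adjusted p = 0.0286 from limma). *HSPA8* passed in all 6 fits without 1 library, *HSPA4* in 2, and *HSP90AA1* only in the fit without HGC27-control replicate 3. Processed pseudogenes close to *HSPA8* and *HSP90AA1* can share their reads, so both levels are uncertain.

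Genes that regulate Argonautes or their turnover numbered 14, and 1 of them fell. *LIMD1*, a LIM-domain protein that binds Argonautes, had 1.53 ± 0.0469 RPKM in HGC27-FN1 3′-UTR cells, against 1.997 ± 0.0253 RPKM in HGC27-control cells (SD, n = 3 each), with a log2 fold change of -0.36 and an adjusted p of 0.0164 (limma). This call was made in 2 of 6 fits without 1 library, those without HGC27-control replicate 1 or HGC27-FN1 3′-UTR replicate 1. Its relatives *AJUBA* and *WTIP*, named after their values were seen, both had log2 fold changes of 0.34 that did not pass (adjusted p = 0.0981 and 0.0872 from limma).

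Downstream of TNRC6, 4 of 18 deadenylation genes fell and none rose, against 7.36% and 5.62% of all tested genes. Groups did not overlap for 13 of the 18, against 36.0% of all tested genes. *PAN2*, the catalytic subunit of the PAN2-PAN3 deadenylase, was at 3.11, 3.32 and 3.48 RPKM in HGC27-FN1 3′-UTR cells and 4.74, 5.28 and 4.90 RPKM in HGC27-control cells. The groups were well apart. Its log2 fold change of -0.58 was the largest in absolute size among the 82 genes (standard error 0.064, 95% interval -0.73 to -0.42, adjusted p = 0.00473 from limma), and it passed in all 6 fits without 1 library. *CNOT4*, *TOB1* and *CNOT8*, which code for partners or subunits of the CCR4-NOT deadenylase, had log2 fold changes of -0.32, -0.27 and -0.16 (adjusted p = 0.0317, 0.0299 and 0.035 from limma). *CNOT4* and *CNOT8* passed in 0 of those 6 fits, and *TOB1* only in the fit without HGC27-FN1 3′-UTR replicate 3.

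Of 14 genes for decapping and decay, 2 fell and none rose, against 7.36% and 5.62% of all tested genes. *DCP1B*, a decapping cofactor, and *EDC4*, the scaffold of the decapping complex, had log2 fold changes of -0.28 and -0.19 (adjusted p = 0.0386 and 0.036 from limma). *DCP1B* passed in 0 of the 6 fits without 1 library, and *EDC4* only in that without HGC27-control replicate 1. *AGO4*, *HSPA8* and *PAN2* were thus the 3 of these 14 called genes whose calls held in every fit without 1 library.

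**Figure D4:**
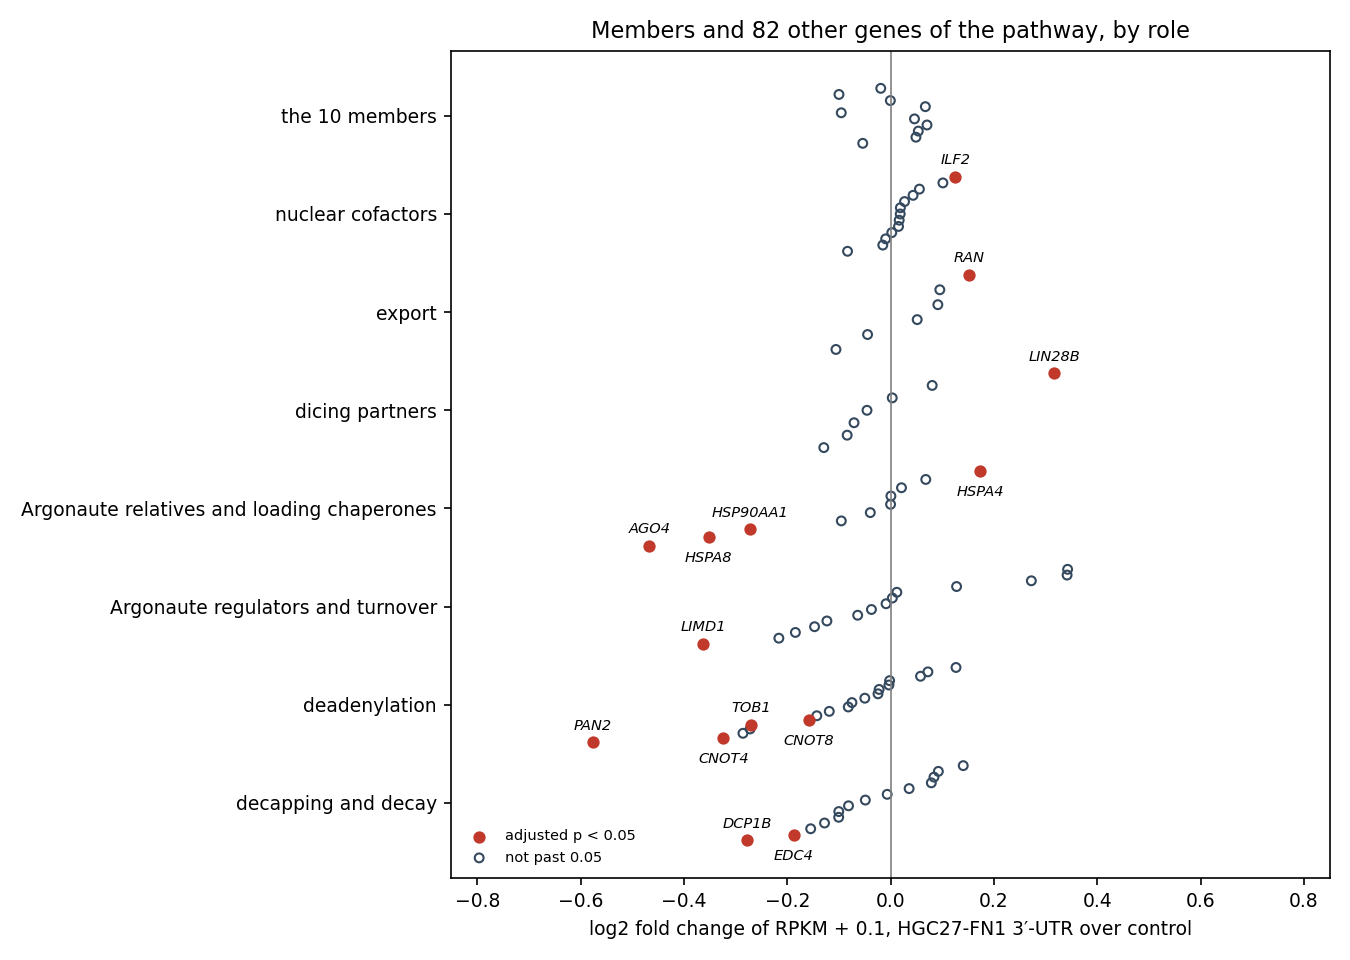
Log2 fold change of RPKM + 0.1 in HGC27-FN1 3′-UTR over HGC27-control cells (x axis) for the 10 members (top row) and the 82 other tested genes of the pathway, 1 row per role, with filled red points at an adjusted p under 0.05 from limma. The 10 members lie between -0.10 and 0.07, and the 14 filled points lie between -0.58 (*PAN2*) and 0.32 (*LIN28B*).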

How the data were processed

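Groups and replicate numbers came from the sample titles. Libraries were made from mRNA with a strand-specific kit. The values deposited by the authors are RPKM, normalised to the length of merged exons and to 1000000 reads assigned to genes. The submitters' processing notes name Trimmomatic 0.36, STAR 2.5.3a, featureCounts of Subread 1.5.1 and GRCh38. The annotation release and the strand setting of counting were not given in the sources used here. RPKM multiplied by length gave whole reads for 100% of values above 0 (within 0.01 of a read), which gave the depth and a voom fit.

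Expression was compared with limma 3.58.1 (R 4.3.3) on log2(RPKM + 0.1) over all genes with at least 0.1 RPKM in 3 or more libraries, with group as the only term and a trend in the prior variance. Fold changes on this scale understate changes of low genes. Adjusted p-values are two-sided, by the Benjamini-Hochberg method over all tested genes. Ratios and shares were tested by exact permutation with scipy 1.17.1. The fits were tested on simulated reads. The 10 genes and the lists were chosen with earlier results of these data known. All 10 genes are named, with *AGO4*, *TNRC6C*, *PRKRA* and *LIN28B* in every case and, per list, up to 4 genes with the largest change among those past the threshold. Counting error alone is covered by the comparison with reads.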

Additional observations from a re-analysis of the deposited data

How the results depend on the processing

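None of the 10 genes passed an adjusted p under 0.05 in any of the fits run, which changed the pseudocount (1 or 0.01), the minimum RPKM (none or 1), the scaling (median ratio), the test (voom on recovered reads), the block and the libraries. Signs near 0 turned: *AGO3* was at 0.00028 with a pseudocount of 1, 0.0322 with median-ratio scaling and 0.0084 with voom, and *TNRC6B* at 0.0153 with median-ratio scaling, which moved the median of all genes by 0.0333. With 1 library left out, log2 fold changes ran from -0.0619 to 0.0407 for *AGO3*, -0.0504 to 0.00601 for *TNRC6B* and -0.0082 (without HGC27-control replicate 1) to 0.15 for *AGO2*. The *DICER1* to *TARBP2* difference ran from -0.0212 to 0.0619 and that of *AGO3* to *AGO2* from -0.23 to 0.0324. The cause was not tested. Of the 82 other pathway genes, 10 were higher and 18 lower with voom, 6 were lower with median-ratio scaling, and 0 met the study's criteria in either direction. With 1 library left out, 0 to 2 were higher and 3 to 5 lower, in fits with fewer samples.

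In a fit with a replicate block, 0 of the 10 genes passed, and 0 other pathway genes were higher and 5 lower. *LIN28B* then had an adjusted p of 0.0573 and *AGO4* of 0.0397 from limma. Across genes, deviations from the group means of libraries sharing a number had correlations of 0.00244, 0.0211 and 0.0103. Those of libraries with different numbers ran from -0.0195 to 0.00838. Depth rose with the replicate number in both groups. Correlations this small cannot show whether libraries sharing a number also shared a batch. In the block, sign flips of 3 pairs cannot give a p below 0.25 for the ratios. Among the 10 genes, *AGO3* had the fewest reads, 326 in its shallowest library, and *AGO4* had 250.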
